A study of Rattus norvegicus with 6 samples.

Results

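Cytochromes P450 of families 2 and 4 are haem enzymes of the endoplasmic reticulum that oxidise drugs, steroids and fatty acids, and this account follows 10 of their genes in the renal cortex of rats: Cyp2c11, Cyp2c23, Cyp2e1, Cyp2j4, Cyp4a1, Cyp4a2, Cyp4a3, Cyp4a8, Cyp4b1 and Cyp4f4. They were chosen by name, and every probe whose accession belongs to their symbols was taken, which gave 16 probes among the 61657 probes of the array. The filter on dim probes left 15 of these probes and 9 of the 10 genes among 32662 gene entries tested, of which 11831 were named genes. Anthraquinone, a tricyclic quinone, was given at 1000 mg/kg/day for 4 weeks to 3 male Sprague-Dawley (Crl:CD(SD)) rats, and 3 more males of the same stock received the corn oil vehicle over the same 4 weeks. All were 5 weeks old when purchased and ate a basal diet. Each animal's cortex RNA was hybridised to its own array, and the question of the series is which genes change with treatment. A bulk extract cannot tell fewer cells of a type from less RNA per cell.

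In the kidney these enzymes sit mainly in the proximal tubule, where they turn arachidonic acid into signalling lipids. Family 2 epoxygenases make epoxyeicosatrienoic acids, which relax vessels and curb sodium uptake. Family 4 hydroxylases act on the end of the fatty acid chain and make hydroxyeicosatetraenoic acid, which constricts vessels and inhibits tubular sodium transport. In rodents the Cyp4a genes are textbook targets of the fatty acid receptor PPAR-alpha, and Cyp2c11 is the male form of rat liver, kept on there by pulses of growth hormone. All P450s of the endoplasmic reticulum take electrons from the reductase encoded by Por.

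The labelled tissue was checked first. All 14 general proximal tubule markers on the list, among them Slc34a1, Lrp2 and Cubn, passed the filter, and their summed level was 2593 to 2939 in anthraquinone rats and 2566 to 2900 in corn oil rats, in units of each array's 75th percentile. Of 7 hepatocyte markers only Apoa1 and Fgb passed, with a summed level of 0.373 to 0.603 in anthraquinone rats and 0.480 to 0.696 in corn oil rats, and albumin (Alb) did not pass. The 75th percentile of intensity was 844 to 880 on anthraquinone arrays and 903 to 1190 on corn oil arrays, and 64.2 to 66.1% of probes were well above background with anthraquinone, against 68.7 to 70.7% with corn oil. By the array barcodes, 5 of the 6 arrays shared a slide. The barcode field read as the row was 2 for the anthraquinone rats and 1 for both controls there. Row and treatment cannot be told apart on that slide. The array of corn oil replicate 1 was hybridised on another slide.

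Of the 10 genes, 5 are neighbours. On the RefSeq annotation of rat assembly GRCr8, which was used for names and gene order because the array was designed on an older assembly, Cyp4x1, Cyp4a8 and Cyp4a2 follow each other on chromosome 5, and Cyp4a3, Cyp4a1 and Cyp4b1 follow after a Cyp4a2-like gene. The 250 bases before the gene start are shown for 3 genes, read 5′ to 3′ on the gene's strand from RefSeq (GRCr8). Cyp2c11 (chr1:246174966-246175215, plus strand) had the largest difference of the 9 genes tested, and Cyp4a2 (chr5:134170909-134171158, minus strand) and Cyp4a3 (chr5:134352237-134352486, minus strand) show how alike the paralogs are. Capitals mark AGGTCA, the core hexamer bound by PPAR-alpha and related nuclear receptors, searched on both strands.
Cyp2c11: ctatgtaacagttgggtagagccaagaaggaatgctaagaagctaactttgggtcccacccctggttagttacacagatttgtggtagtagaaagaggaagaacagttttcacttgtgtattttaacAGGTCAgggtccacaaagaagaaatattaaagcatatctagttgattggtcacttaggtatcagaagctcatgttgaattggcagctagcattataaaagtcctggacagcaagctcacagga
Cyp4a2: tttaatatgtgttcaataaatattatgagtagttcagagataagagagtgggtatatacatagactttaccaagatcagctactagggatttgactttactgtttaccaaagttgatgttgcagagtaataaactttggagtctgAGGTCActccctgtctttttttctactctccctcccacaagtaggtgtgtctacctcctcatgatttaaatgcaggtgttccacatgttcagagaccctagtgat
Cyp4a3: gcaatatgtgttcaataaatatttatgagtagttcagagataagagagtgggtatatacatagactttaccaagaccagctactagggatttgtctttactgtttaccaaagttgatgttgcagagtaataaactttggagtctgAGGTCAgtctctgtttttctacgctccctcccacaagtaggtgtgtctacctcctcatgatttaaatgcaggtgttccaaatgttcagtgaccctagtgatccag

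The Cyp4a2 and Cyp4a3 stretches were identical at 236 of 255 aligned columns (92.5%), and each holds the hexamer at position -105 from the gene start. Over the other pairs of the 8 genes with an entry, identity was 42.5 to 59.9%, and 59.9% was that of Cyp4a3 and Cyp4a8. The hexamer lay in 4 of those 8 stretches (Cyp2c11, Cyp2e1, Cyp4a2 and Cyp4a3) and in 14.1% of 33469 rat stretches of the same length. The direct repeat of the hexamer with 1 base between its copies was in 0 of the 8 and in 0.0508% of all, and the STAT element TTCNNNGAA was in 2 of the 8 (Cyp2j4 and Cyp4a8) and in 7.67% of all, each on both strands. These are matches of letters, not shown to be bound. Probe sequences were not used here, so how far a Cyp4a2 probe also reads Cyp4a3 was not tested.

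Cyp2c11 had the largest difference in size of the 9 genes tested. The enzyme hydroxylates steroids and epoxidises arachidonic acid. On the log2 scale relative to each array's 75th percentile, which is used for all values that follow, its probe A_44_P280786 read -0.62, -4.15 and -4.97 in anthraquinone replicates 1, 2 and 3 and 1.49, 2.16 and 0.20 in corn oil replicates 1, 2 and 3. The groups did not overlap, and the gap between them was narrow, since anthraquinone replicate 1 lay near corn oil replicate 3 and far above anthraquinone replicates 2 and 3. The mean was -3.24 ± 2.31 with anthraquinone and 1.28 ± 0.99 with corn oil (SD, n = 3 each), a 23.1-fold lower mean level. The log2 difference was -4.53 ± 1.17 (SE), with a 95% interval of -7.37 to -1.68, and limma gave an unadjusted p of 0.0079. It did not pass over all entries (limma adjusted p = 0.198), and neither did any of the other 8 genes tested; 0.0276% of all entries passed in either direction. Cyp2c11 was the only 1 of the 9 with a lower level at an unadjusted p under 0.05, as had 7.69% of all entries. Over 17 other settings the difference ran from -5.84 to -3.40 with adjusted p from 0.0747 to 0.395, where -5.84 was the value with anthraquinone replicate 1 left out; leaving out anthraquinone replicate 3 gave -3.66. All 6 values were well above background.

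**Figure D1:**
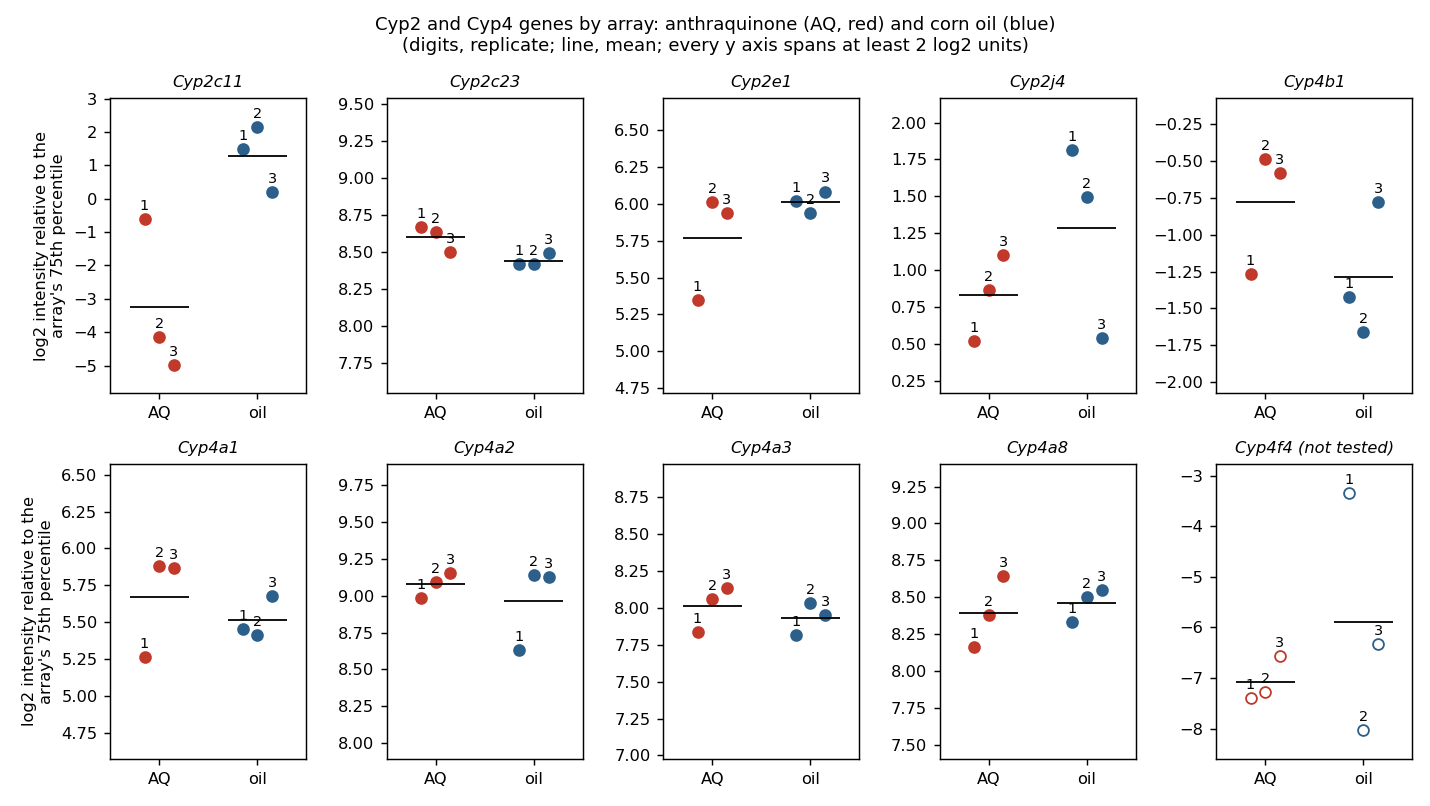
Log2 intensity relative to the array's 75th percentile for the brightest probe of each gene, 1 point per array (digit, replicate), anthraquinone (AQ) at left and corn oil at right, with the group mean as a line; open points mark Cyp4f4, which was not tested. Cyp2c11 spans -4.97 to -0.62 with anthraquinone and 0.20 to 2.16 with corn oil, and of the other genes tested only Cyp2c23 has groups that do not overlap.

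Late proximal tubule markers were set beside Cyp2c11 after their values were seen, because their sum was also lower in most treated animals. The 5 that passed (Slc7a13, Slc22a7, Slc5a1, Slc5a10 and Aqp7) had a summed level of 90.7, 46.6 and 65.7 in anthraquinone replicates 1, 2 and 3 and 149.7, 150.4 and 73.6 in corn oil replicates 1, 2 and 3, so that anthraquinone replicate 1 lay above corn oil replicate 3. A sum weighs bright genes most. The brightest of the 5 was Slc7a13, whose mean was 5.26 with anthraquinone and 6.42 with corn oil, with overlap. Of the 5, 4 had negative log2 differences, with a median of -0.56 over the list. They were -1.70 ± 0.31 for the sugar transporter gene Slc5a10, -1.16 ± 0.51 for Slc7a13, -0.56 ± 0.46 for Slc22a7 and -0.31 ± 0.18 for Slc5a1, and the glycerol channel gene Aqp7 had 0.34 ± 0.08 (SE). None passed (limma adjusted p from 0.158 to 0.567). The 3 early proximal tubule markers summed to 176 to 223 in anthraquinone rats and 174 to 189 in corn oil rats. The part of cell composition in the Cyp2c11 difference was not tested. Of the hepatocyte markers, Alb, Apoa2, Serpina1, Tat and Cps1 did not pass the filter, and Fgb and Apoa1 differed by -0.17 ± 0.27 and -1.38 ± 1.08 (SE), each with overlap.

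Cyp2c23, the main epoxygenase gene of rat kidney, was 8.67, 8.63 and 8.50 in anthraquinone rats and 8.42, 8.42 and 8.49 in corn oil rats. Every anthraquinone animal was above every corn oil animal, by a small margin. The difference was 0.16 ± 0.08 (SE), a 1.12-fold higher mean with an interval of -0.03 to 0.35, and did not pass (limma adjusted p = 0.352). Of the 9 genes tested, 1 lay wholly above its corn oil values (Cyp2c23) and 1 wholly below (Cyp2c11), and over all entries 14.9% lay wholly above and 10.3% wholly below. The sign of the Cyp2c23 difference turned with the normexp background correction and quantile normalization (-0.017).

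Cyp2e1, which oxidises ethanol, acetone and small solvents, was 5.35, 6.01 and 5.93 in anthraquinone rats and 6.02, 5.94 and 6.08 in corn oil rats. Only anthraquinone replicate 1 was below the corn oil range by more than a trace, and without it the difference was -0.04. With all arrays it was -0.25 ± 0.18 (SE, interval -0.69 to 0.20, limma adjusted p = 0.523).

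Cyp2j4, another arachidonic acid-metabolising P450, was read by 3 probes that gave nearly the same picture. Its brightest probe read 0.52, 0.87 and 1.10 in anthraquinone rats and 1.81, 1.50 and 0.54 in corn oil rats. Corn oil replicates 1 and 2 were above all anthraquinone animals on each of the 3 probes, while corn oil replicate 3 lay near the lowest of them (within their range on 2 probes and below it on A_42_P792497). The difference was -0.45 ± 0.34 (SE, interval -1.29 to 0.38, limma adjusted p = 0.535), and the other probes gave -0.45 and -0.40. Leaving out corn oil replicate 3 gave -0.83, and leaving out corn oil replicate 1 gave -0.19.

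The 4 Cyp4a genes encode the fatty acid omega-hydroxylases, of which Cyp4a1 is the most active on arachidonic acid in the rat. Their differences were small, and each of the 8 intervals spans 0. Cyp4a1 was 5.26, 5.88 and 5.86 in anthraquinone rats and 5.45, 5.42 and 5.68 in corn oil rats, so the anthraquinone values lay on both sides of the corn oil range. Its difference was 0.16 ± 0.19 (SE, interval -0.30 to 0.61, limma adjusted p = 0.707), and a second probe gave 0.13. Leaving out anthraquinone replicate 1 gave 0.36.

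Cyp4a2, a form known to be more abundant in the kidney of male rats, was 8.99, 9.09 and 9.15 in anthraquinone rats and 8.63, 9.14 and 9.13 in corn oil rats on its brightest probe. Corn oil replicate 1 was the low value, and the rest overlapped. The difference was 0.11 ± 0.15 (SE, interval -0.26 to 0.48), and it turned to -0.055 without corn oil replicate 1. A second probe, A_44_P147020, read 6.38, 6.65 and 7.08 in anthraquinone rats and 7.00, 6.93 and 6.98 in corn oil rats, a difference of -0.27 ± 0.18 (SE). The sign of Cyp4a2 therefore differs between its probes, and neither passed (limma adjusted p = 0.743 and 0.474 over the 41308 probes tested, of which 0.0339% passed).

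Cyp4a3, whose stretch before the gene start is shown above as nearly that of Cyp4a2, was 7.84, 8.06 and 8.14 in anthraquinone rats and 7.82, 8.03 and 7.95 in corn oil rats. These values overlapped almost fully, and the difference was 0.08 ± 0.11 (SE, interval -0.19 to 0.34, limma adjusted p = 0.756). It was -0.10 after quantile normalization. Cyp4a8, the remaining gene of the cluster, was 8.16, 8.38 and 8.64 in anthraquinone rats and 8.33, 8.50 and 8.55 in corn oil rats on its brightest probe, a difference of -0.06 ± 0.14 (SE, interval -0.40 to 0.27). Its other probes gave 0.19 ± 0.11 and 0.21 ± 0.10 (SE). None of the 3 passed, and the sign was not settled by these probes.

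**Figure D2:**
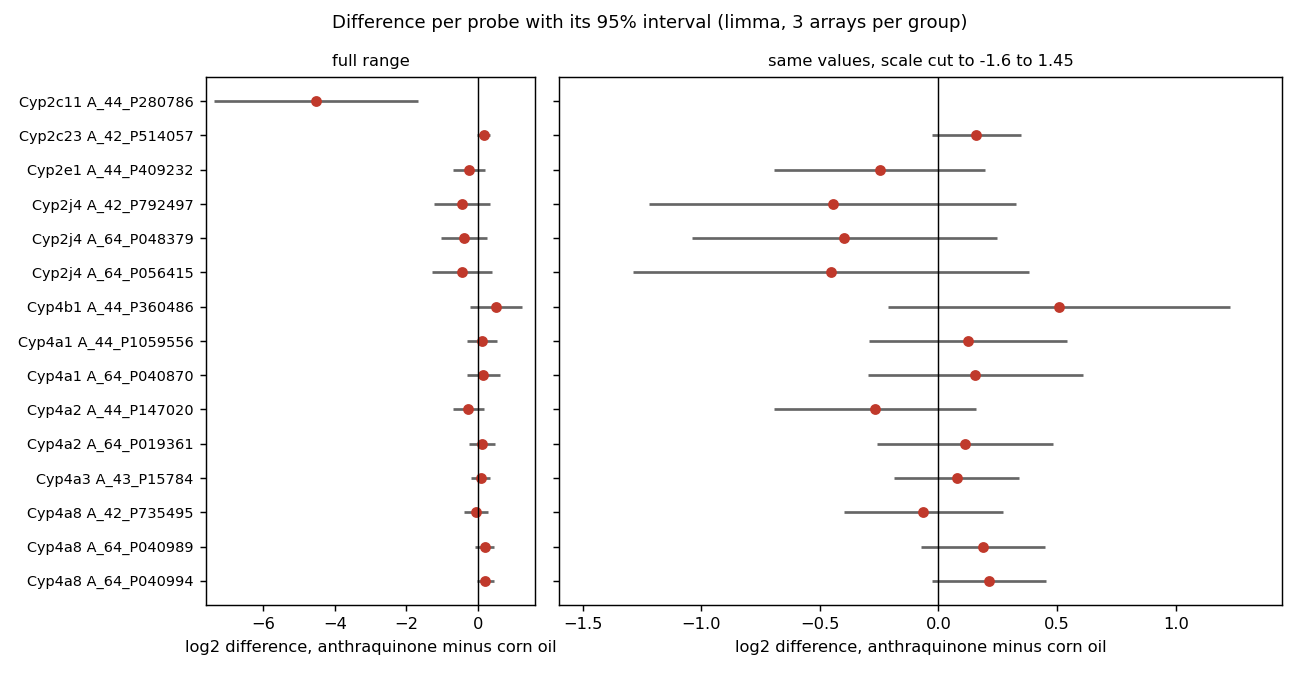
Log2 difference, anthraquinone minus corn oil, for each of the 15 probes tested, with its 95% interval as a bar, over the full range at left and enlarged at right. The Cyp2c11 interval, -7.37 to -1.68, is the only 1 of the 15 that leaves out 0, and every Cyp4a point lies between -0.27 and 0.21.

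Cyp4b1, which omega-hydroxylates medium-chain fatty acids and bioactivates some furans and arylamines, was -1.27, -0.49 and -0.58 in anthraquinone rats and -1.42, -1.66 and -0.78 in corn oil rats. Anthraquinone replicates 2 and 3 were above every corn oil animal and replicate 1 was not. The difference was 0.51 ± 0.30 (SE, interval -0.21 to 1.23, limma adjusted p = 0.424), the highest of the 9 genes tested. Leaving out corn oil replicate 3 gave 0.76, and leaving out corn oil replicate 2 gave 0.32. Cyp4f4, a relative of the leukotriene-inactivating family 4 enzymes, did not pass the filter. Its probe was well above background on corn oil replicate 1 (-3.33) and on none of the other 5 arrays, which read -8.04 to -6.32, and no fold is given.

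The order of the treated animals was nearly the same on every Cyp4a probe. On all 8 Cyp4a probes anthraquinone replicate 1 was the lowest of its group, and on 7 of the 8 replicate 3 was the highest. Replicate 1 was the lowest of its group on 13 of the 15 probes tested, and on 35.4% of all probes. The exceptions were Cyp2c11 and Cyp2c23, on which it was the highest. Probes of a gene and of close paralogs share their source, so these are not independent counts, and a cause of the animal's position was not tested.

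The list of PPAR-alpha targets takes in genes of fatty acid oxidation and handling, and also Ppara and Rxra. It held the same animal low. Of 34 genes that passed the filter, 27 had their lowest anthraquinone value in replicate 1. The median over the 34, each set relative to its own corn oil mean, was -0.07, 0.25 and 0.40 in anthraquinone replicates 1, 2 and 3 and -0.08, 0.04 and 0.07 in corn oil replicates 1, 2 and 3. The median log2 difference was 0.17, with 29 positive and 5 negative values, against 0.0068 over all entries, and it was 0.32 or 0.08 when anthraquinone replicate 1 or 3 was left out. It was 0.041 after quantile normalization and 0.049 with the normexp background correction as well. None of the 34 passed over all entries, and at an unadjusted p under 0.05 there were 3 higher and 0 lower, where 9.43% of all entries were higher. These were the peroxisomal thiolase gene Acaa1a (0.33 ± 0.08), the peroxisomal multifunctional enzyme gene Hsd17b4 (0.28 ± 0.08) and the fatty acid-binding protein gene Fabp3 (0.32 ± 0.13, SE), with limma adjusted p of 0.195, 0.213 and 0.287. Ppara itself, which encodes the receptor, differed by 0.49 ± 0.35 (SE, limma adjusted p = 0.511).

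**Figure D3:**
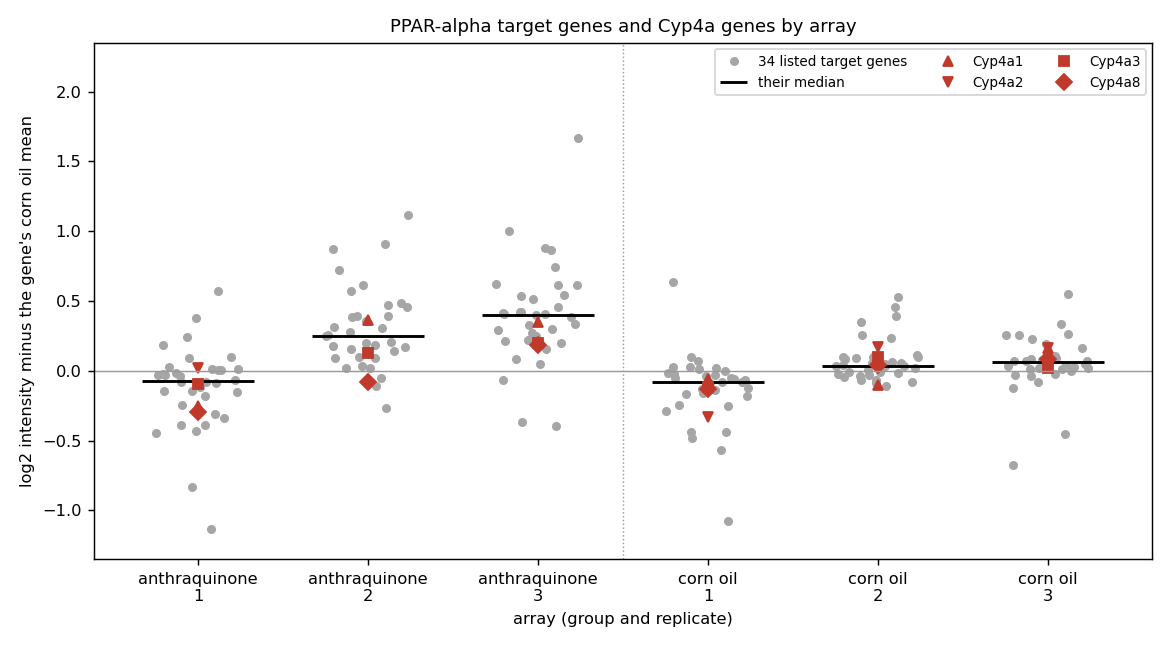
Log2 intensity minus the gene's own corn oil mean, by array, for the 34 genes of the PPAR-alpha target list (grey points, line at their median) and the 4 Cyp4a genes on their brightest probe (red). The median of the list is -0.07, 0.25 and 0.40 on anthraquinone arrays 1, 2 and 3, and the Cyp4a genes are lowest of their group on anthraquinone array 1.

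The genes nearest to Cyp2c11 in pattern were sought among 177 named genes whose log2 difference was 1 or more in size, by the mean absolute distance over the 6 arrays after each gene was set relative to its corn oil mean. The nearest 5 were Gc (distance 1.13), which encodes the vitamin D-binding protein, Cpne4 (1.27), Defb21 (1.28), Tm4sf20 (1.35) and Hnmt (1.36), which encodes a histamine methyltransferase. Hnmt was 1.82, -0.18 and 0.48 in anthraquinone rats and 3.19, 3.29 and 1.74 in corn oil rats. As with Cyp2c11, its corn oil replicate 3 was the lowest of the controls and its anthraquinone replicate 1 the highest treated animal. In Gc anthraquinone replicate 3 was the highest treated animal, with anthraquinone values of -1.40, -3.04 and -0.96 and corn oil values of 2.01, 1.84 and 0.79. The 5 were chosen for this likeness over all 6 arrays, controls included. None of the 5 passed, with limma adjusted p from 0.138 to 0.327, and Defb21 was not well above background on any anthraquinone array. Cpne4 was well above background on 1 of the 3 anthraquinone arrays. It read -7.42 in anthraquinone replicate 3, where the lowest level well above background was -5.50. Defb21 and Cpne4 passed the filter through the corn oil group alone. Candidates had to differ by 1 or more, and Cyp4b1, the gene with the highest difference, did not, so the genes nearest to it lie at that limit, with differences of 1.01 to 1.05. They were Pcsk1 (0.34), Rhd (0.34), S100g (0.40), Tnfsf9 (0.40) and Abcb1b (0.41). Tnfsf9 passed the filter through the anthraquinone group alone, with 1 corn oil array well above background.

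**Figure D4:**
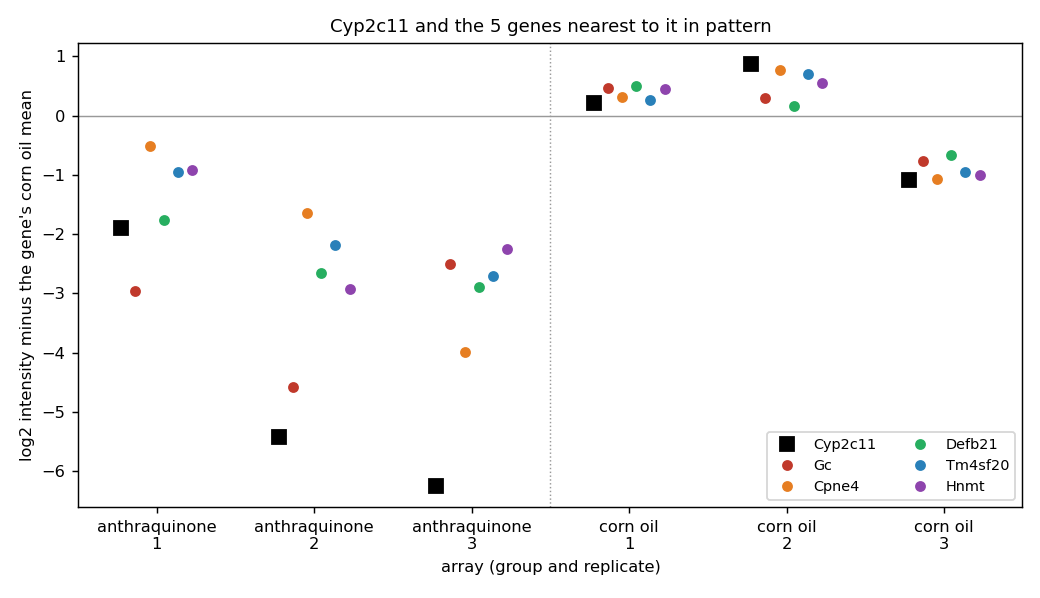
Log2 intensity minus the gene's own corn oil mean, by array, for Cyp2c11 (black squares) and the 5 named genes nearest to it in pattern (coloured points). The genes were chosen for their likeness on these arrays, and Cyp2c11 reaches -5.43 and -6.25 in anthraquinone replicates 2 and 3. Defb21 and Cpne4 were dim with anthraquinone.

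Other members of families 2 and 4 were counted from a list of 47 symbols. Of these 34 had a probe and 20 passed the filter, 7 with positive and 13 with negative log2 differences and a median of -0.11. None passed over all entries. Cyp2c12, Cyp2c13, Cyp2c7 and Cyp2a1, which are sex-biased genes of rat liver, Cyp2b1, which is induced by phenobarbital there, and the Cyp2c11 relative Cyp2c22 did not pass the filter. Cyp2a2, a relative of Cyp2a1, did pass and is given below. Cyp2c24, the gene next to Cyp2c11, had no probe matched to its symbol.

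Cyp4x1, which lies beside Cyp4a8 and encodes an enzyme that epoxidises the endocannabinoid anandamide, was -3.78, -3.49 and -4.55 in anthraquinone rats and -5.85, -5.58 and -5.57 in corn oil rats. The groups did not overlap, and the corn oil animals were close together while anthraquinone replicate 3 was the lowest treated animal. The mean was 3.31-fold higher, with a log2 difference of 1.73 ± 0.27 (SE, interval 1.07 to 2.38, limma unadjusted p = 6.2e-04), and it did not pass (limma adjusted p = 0.128). Its signal was dim, and it passed the filter through the anthraquinone group alone, with 2 of the 3 corn oil arrays well above background. The lowest level well above background was itself higher on anthraquinone arrays (-5.50 to -5.24) than on corn oil arrays (-6.03 to -5.81). A second probe, not well above background on any array, was also higher without overlap (0.60). The part of such an offset in the Cyp4x1 difference was not tested. Cyp4a8, the neighbour on 1 side, had the difference of -0.06 given above.

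Of the other genes of these families, 3 lay wholly below their corn oil values, Cyp2a2 (-0.39), Cyp2s1 (-0.24) and Cyp2t1 (-0.23), none past the test and all named after their values were seen, where 10.3% of all entries lay wholly below. Cyp2d1 and Cyp2d5, drug-oxidising paralogs, are named here after their values were seen. Cyp2d1 was 5.14, 4.20 and 5.47 in anthraquinone rats and 5.64, 6.15 and 5.38 in corn oil rats, so that anthraquinone replicate 3 lay within the corn oil range. The differences were -0.79 ± 0.36 for Cyp2d1 and -0.83 ± 0.38 for Cyp2d5 (SE, limma adjusted p = 0.328 and 0.332). A second Cyp2d5 probe, A_44_P266765, read 3.32, 2.37 and 3.67 in anthraquinone rats and 3.90, 4.52 and 3.67 in corn oil rats, barely without overlap (-0.91 ± 0.38, SE, limma adjusted p = 0.290). How far each probe also reads the paralog was not tested.

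**Figure D5:**
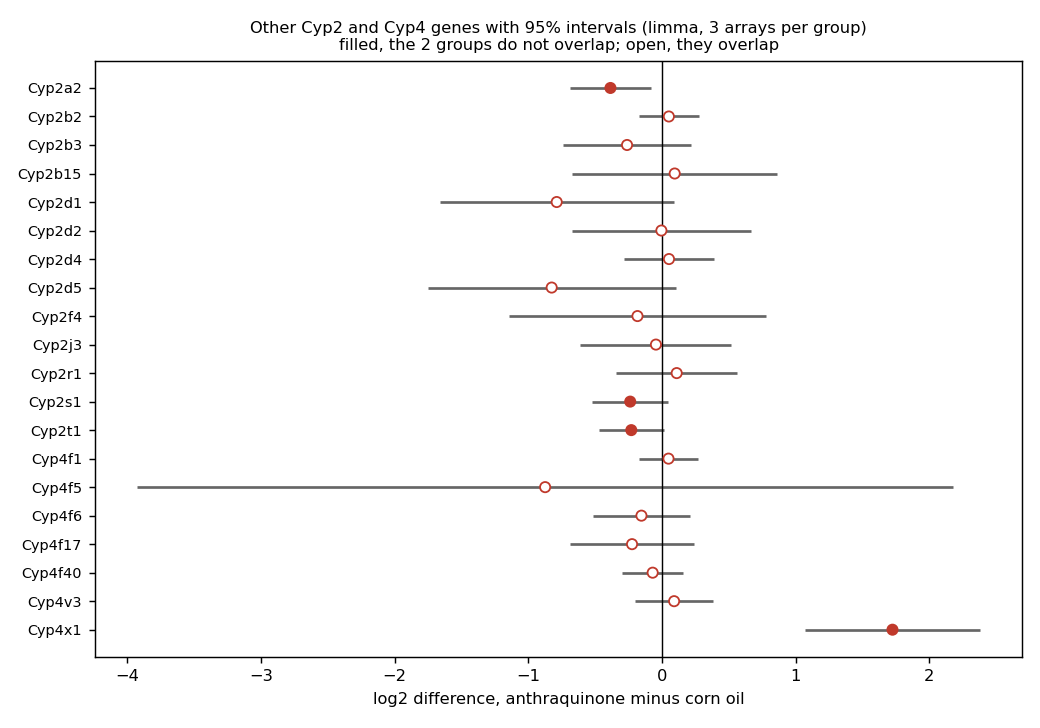
Log2 difference, anthraquinone minus corn oil, with its 95% interval for the other 20 genes of families 2 and 4 that passed the filter; filled points are genes whose groups do not overlap. Cyp4x1 lies at 1.73 with an interval of 1.07 to 2.38, and Cyp4f5 has the widest interval. Cyp4x1 was dim and passed the filter through the anthraquinone group alone.

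Of the genes that feed electrons to P450s none passed the test. Of 11, 9 had positive and 2 negative log2 differences, with a median of 0.16, and at an unadjusted p under 0.05 there were 4 higher and 0 lower, where 9.43% of all entries were higher and 7.69% lower. The median was 0.031 with the normexp background correction and quantile normalization and 0.065 with quantile normalization alone. The cytochrome b5 genes Cyb5a (0.30 ± 0.08) and Cyb5b (0.45 ± 0.15) and the b5 reductase gene Cyb5r3 (0.21 ± 0.08, SE) had limma adjusted p of 0.203, 0.238 and 0.270. A second Cyb5b probe gave 0.02 ± 0.09 (SE), with overlap. Por, the common reductase gene, was 3.09, 3.93 and 3.79 in anthraquinone rats and 3.14, 2.94 and 3.02 in corn oil rats. As with Cyp4a1 and Cyp4b1, replicates 2 and 3 were above every control and replicate 1 was not. The difference was 0.57 ± 0.22 (SE, limma adjusted p = 0.279).

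Enzymes that act beside P450s on arachidonic acid and its products went both ways. Of 19 that passed the filter, 11 were positive and 8 negative, with a median of 0.05, and 0 passed over all entries. The median turned to -0.043 without corn oil replicate 2 and to -0.048 with a stricter filter on dim probes. Alox15, which encodes an arachidonate lipoxygenase, was -0.99, -1.75 and -1.96 in anthraquinone rats and -3.29, -2.80 and -3.11 in corn oil rats. The groups did not overlap, and the mean was 2.83-fold higher (log2 difference 1.50 ± 0.27, SE, limma adjusted p = 0.157). Red cell precursors and macrophages also express this enzyme family. The 4 erythroid markers summed to 765 to 1018 in anthraquinone rats and 496 to 639 in corn oil rats. None of the 4 overlapped between groups, where 14.9% of all entries lay wholly above. Slc4a1, among the 4, is also a listed marker of intercalated cells. The 5 macrophage markers summed to 18.0 to 23.8 in anthraquinone rats and 16.4 to 18.1 in corn oil rats, with differences of 0.39 for C1qa, 0.31 for C1qb, 0.10 for Cd68, -0.23 for Csf1r and -0.26 for Adgre1. Their part in the Alox15 difference was not tested. Among prostaglandin E synthase genes, Ptges3 (0.30 ± 0.08) and Ptges2 (0.33 ± 0.11) were higher and Ptges (-0.40 ± 0.11, SE) was lower, each without overlap and with limma adjusted p of 0.199, 0.233 and 0.210. The cyclooxygenase genes Ptgs1 and Ptgs2 differed by -0.18 ± 0.10 and 0.84 ± 0.42 (SE). Ptgs2 was dim, with 2 anthraquinone arrays well above background, and its groups overlapped (limma adjusted p = 0.358). It was -5.37, -4.79 and -3.65 in anthraquinone rats and -5.25, -5.54 and -5.56 in corn oil rats.

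Of 26 regulators of P450 genes that passed the filter, 15 were positive and 11 negative, with a median of 0.07, and 0 passed over all entries. Prlr, which encodes the prolactin receptor, a relative of the growth hormone receptor, had the lowest log2 difference of them. It was 0.41, 0.15 and 0.36 in anthraquinone rats and 1.90, 1.41 and 1.17 in corn oil rats. The groups did not overlap, and all treated animals were alike, unlike their Cyp2c11 values. The mean was 2.28-fold lower, with a log2 difference of -1.19 ± 0.19 (SE, limma unadjusted p = 7.5e-04, limma adjusted p = 0.137).

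Stat5a, which encodes a transcription factor downstream of both receptors, differed by -0.43 ± 0.13 (SE), and Socs2, a feedback inhibitor gene that this factor induces, by -0.60 ± 0.24 (SE), each without overlap (limma adjusted p = 0.220 and 0.279). Socs2 was dim, and well above background on 2 of the 3 anthraquinone arrays. It passed the filter through the corn oil group alone, a route that favours lower values with anthraquinone. Over all entries 10.3% lay wholly below their corn oil values. Cish, another gene of the list, differed by -0.49 ± 0.57 (SE), with overlap. Ghr, the growth hormone receptor gene, and Stat5b differed by 0.15 ± 0.09 and 0.05 ± 0.12 (SE), with overlap. Hnf4a, which encodes a nuclear receptor of liver and proximal tubule, differed by -0.33 ± 0.14 (SE, limma adjusted p = 0.305), with overlap. Its other probes gave 0.003 and -0.27, also with overlap. On the higher side were the bile acid receptor gene Nr1h4 (0.39 ± 0.09), the cytokine feedback gene Socs3 (0.45 ± 0.13) and the stress-responsive factor gene Cebpb (0.82 ± 0.25, SE), with limma adjusted p of 0.191, 0.213 and 0.217. Nr1i2, the gene of the xenobiotic receptor PXR, differed by 0.19 ± 0.10 (SE, limma adjusted p = 0.378).

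The last list held genes that handle fatty acids, alcohols and ketones beside these P450s. Of 15 that passed the filter, 12 were positive and 3 negative, with a median of 0.09, and 0 passed over all entries. Acsm1, which encodes a medium-chain acyl-CoA synthetase, was 3.16, 2.59 and 3.59 in anthraquinone rats and 2.20, 1.96 and 2.20 in corn oil rats, without overlap (0.995 ± 0.25, SE, limma adjusted p = 0.195). Fabp4, a fatty acid-binding protein gene of adipocytes and endothelium, was -5.63, -4.18 and -4.11 in anthraquinone rats. It was -2.42, -3.11 and -2.91 in corn oil rats, also without overlap and dim with anthraquinone (-1.83 ± 0.44, SE, limma adjusted p = 0.191). Only the corn oil group brought Fabp4 through the filter, which favours a lower value with anthraquinone. Its value in anthraquinone replicate 1 lay under that array's lowest level well above background (-5.35). The size of the difference therefore rests partly on a dim reading. The 2 adipocyte markers that passed summed to 1.82 to 3.26 in anthraquinone rats and 1.72 to 2.50 in corn oil rats, and 6 endothelial markers to 29.1 to 34.4 in anthraquinone rats and 31.3 to 34.1 in corn oil rats. Their part in the Fabp4 difference was not tested. The fatty aldehyde dehydrogenase gene Aldh3a2 (0.32 ± 0.11) and the acyl-CoA synthetase gene Acsl5 (-0.25 ± 0.09, SE) did not overlap between groups either (limma adjusted p = 0.239 and 0.241).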

How the data were processed

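Per the file headers, the authors scanned 1-colour Cy3 arrays and extracted linear spot intensity, background-corrected but not scaled between arrays, with version 10.7.1.1 of Feature Extraction (10.7 per the submitters' processing notes). The authors' deposited value table, also intensity, matched the processed intensity over each array's 75th percentile to within 0.01 log2 on 90.7 to 97.0% of probes, with column medians of 0.109, 0.111 and 0.110 for anthraquinone replicates 1, 2 and 3 and 0.109, 0.113 and 0.114 for corn oil replicates 1, 2 and 3. It is linear and not centred, though no header says so.

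Log2 processed intensity minus the array's 75th percentile was used. Outlier spots, 2 to 13 per array, were dropped. Testing was limited to probes that every array of either group had well above background. Accessions were named through RefSeq GRCr8 (27460 probes), and a gene was represented by its brightest probe. Groups of 3 biological replicates, from the sample titles, were compared in a limma fit (version 3.58.1, R 4.3.3) that held the group and no covariate, and p-values were adjusted by Benjamini-Hochberg with a threshold of 0.05. Precision is limited by the 6 arrays. The procedure was tested on simulated data. Alternatives were other scalings, filters, probe rules, variance models, thresholds, blocks and each array left out. The normexp correction (offset 50) used median spot signals. The members and lists were chosen with earlier results of these data known. Named from each list were members past the test, or else up to 3 per direction with the lowest unadjusted p under 0.05, and, of the other family genes, those without overlap and with a difference of 0.5 or more. Receptors and controls given beside them (Ppara, Por, Ptgs1, Ptgs2, Socs2, Cish, Ghr, Stat5b, Hnf4a and Nr1i2) were chosen after their values were seen. A result that the rule names among the regulators is not reported here.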

Additional observations from a re-analysis of the deposited data

How the results depend on the processing

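The 10 P450 genes had 0 calls in each of the 17 alternatives, and Cyp2c11 kept its direction in all of them. In contrast, the count over all gene entries, 9 (5 higher, 4 lower), depended on many of them. It was 6609 without the filter on dim probes, 80 with trended and robust variance, 54 at a threshold of 0.1, 17 with the normexp correction, 2 with the slide as a block (the same comparison as leaving out corn oil replicate 1) and 1 with the replicate block, and between 1 and 25 with each array left out. Median scaling gave 5 higher and 1 lower. The count over probes, 14 (8 higher, 6 lower), was 8392, 110, 95, 37, 2 and 1 under the same settings in that order, 8 higher and 3 lower with median scaling, and between 1 and 25 with each array left out. Without the filter more entries and dimmer probes are tested, and the median of all entries was 0.056. Some probes well above background on no array, such as those of Cyp2a3 (0.59) and Foxa2 (0.60), were higher without overlap. Others overlapped, such as that of Cyp2g1 (-0.06). The cause of the changes in count was not tested in any case. Animals with the same replicate number deviated together at 0.028, -0.059 and -0.0074, so the numbers do not pair them.

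Signs turned for small differences. Cyp2c23 was -0.017 with the normexp correction. Cyp4a2 was -0.082 with it, -0.0044 after quantile normalization, -0.077 as the mean of its probes, and -0.055 with the slide as a block; with each array left out it was between -0.055 (without corn oil replicate 1) and 0.198. Cyp4a3 was -0.097 with the normexp correction and -0.103 after quantile normalization. Cyp4a8 was 0.112 as the mean of its probes, and between -0.188 and 0.051 (without anthraquinone replicate 1) with each array left out. The median of all entries was 0.036 with median scaling, against 0.0068. List medians kept their sign, except that of the eicosanoid enzymes, which ran from -0.048 to 0.113, and that of the 9 P450 genes tested, which ran from -0.103 to 0.126. Dim signal limits Cyp4x1, and Cyp4f4, not tested, had a value only without the filter.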

Other observations

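In 3 genes near these P450s a single animal accounted for the spread of its group. Cyp4f5, another family 4 gene, was -0.32, -0.10 and -4.82 in anthraquinone replicates 1, 2 and 3 and -0.67, -0.56 and -1.40 in corn oil replicates 1, 2 and 3, and its second probe read -7.53 in anthraquinone replicate 3, against -1.98 and -1.72 in the other treated animals. Ephx2, which encodes the soluble epoxide hydrolase that removes the products of Cyp2c and Cyp2j epoxygenases, was low in the same animal, with 2.57, 2.85 and -1.58 in anthraquinone rats and 2.07, 2.66 and 2.02 in corn oil rats. Cpt1a, which encodes the enzyme that admits long-chain fatty acids to mitochondria, was 3.84, 3.65 and 3.88 in anthraquinone rats and 2.19, 3.79 and 3.81 in corn oil rats, so that its low value was in corn oil replicate 1. None of these differences passed (limma adjusted p = 0.759, 0.708 and 0.578), and the genes were chosen after their values were seen.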
